A study of Mus musculus with 17 samples.

Results

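Helios and neuropilin-1 were followed in splenic regulatory T cells (Tregs) through the rows of their genes, Ikzf2 and Nrp1, 2 of the 47643 rows of the deposited count table. The rows were taken by name, and the pair was chosen with their levels across the genotypes known, so the levels and differences given for them are descriptions and carry no test. Helios is a zinc-finger transcription factor of the Ikaros family that Tregs express alongside Foxp3, and it helps to keep their identity stable. Neuropilin-1 is a surface receptor for class 3 semaphorins and for vascular endothelial growth factor, and on mouse Tregs it binds Sema4a, with signalling that restrains Akt. Both are used in mice as markers of Tregs that arose in the thymus, although peripheral and activated T cells can also carry them.

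The study asked how the level of Nfkbid, the gene of a nuclear IkB family member that tunes NF-kB target genes, bears on Tregs in the diabetes-prone NOD strain. All mice carried a Foxp3-GFP reporter on the NOD background, and GFP+ Tregs were sorted from CD4-enriched spleen cells for poly(A) RNA sequencing. The 17 libraries were 6 from transgenic mice that overexpress Nfkbid (NOD-60A Tg+), 5 from Nfkbid knockout mice (NOD- Nfkbid-KO) and 6 from NOD controls (Control NOD). Transgenic libraries were made from 1 sample each, whereas pools of 2 samples went into every knockout or control library, so genotype and pooling cannot be told apart in comparisons with the transgenic group. The promoter of the transgene, the deleted part of Nfkbid and the age and sex of the mice are not given in the sources used here, and all libraries carry 1 batch date. Serial numbers in the column names place the knockout libraries in a run of their own. The transgenic libraries are in a run shared with some controls. The labels do not explain these numbers.

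The Nfkbid row held 7.04 to 11.1 CPM, the library-scaled count, in transgenic libraries (median 8.45). It held 8.31, 2.93, 5.70, 2.24 and 4.58 CPM in knockout libraries, against 3.09 to 5.41 CPM in controls (median 4.8). The knockout range covers all controls, so the row gave no check of the knockout label and the knockout group below is the group so labelled. The Foxp3 row held 286 to 345 CPM in transgenic libraries, 258 to 356 in knockout libraries and 326 to 370 in controls, and did not pass the test in any comparison (edgeR adjusted p of 0.51 in transgenic and 0.346 in knockout libraries against controls, and 0.904 for transgenic against knockout). Library totals ran from 3133388 to 4726615 counts, and 3 counts, the limit that a count of 0 allows, equalled 0.623 to 1.04 CPM. Knockout replicates 2, 3 and 5 had 13466 to 13793 rows above 0, against 15024 and 15908 in knockout replicates 1 and 4, and 25.3 to 28.2% of their counts were mitochondrial, against 22.04 and 22.55%. Rows of genes that nearly all cells transcribe were almost empty, with 0 counts for B2m and Tmsb4x, 0 to 7 for Actb and 0 to 2 for Eef1a1 in all libraries, so a row's name is the table's and not an established identity.

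Because of those empty rows, the position of the counts around both genes was examined before their levels were read. The Ikzf2 row (ENSMUSG00000025997) is annotated in GRCm38 on chromosome 1 from 69531214 to 69687245 on the minus strand, with 10 merged exons of 11613 bases. The 240 rows within 6 Mb of it were moved together along the chromosome in steps of 1 kb, up to 120 kb either way, and their mean counts were ranked against the bases each then placed on exons of protein-coding transcripts. Spearman's rho across rows was highest at 42 kb, with 0.600 against 0.530 unmoved and 0.491 at the same distance the other way. The correlation lay within 0.03 of that maximum also at -6, 31, 41 and 44 kb, so the distance is not sharply fixed. Rows are not independent replicates, and these values are descriptions.

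At 41, 42 and 44 kb the Ikzf2 row, through its 8279-base exon, reached 267 exon bases of Ikzf2, which make up 1 whole coding exon at GRCm38 chr1:69577781-69578047, minus strand. At 42 kb 8996 of its 11613 bases lay inside the gene, mostly on introns, and at 31 kb none lay on an Ikzf2 exon. At -6 kb, the remaining near-best distance, 2423 bases lay on Ikzf2 exons and 0 of them were coding. Own exons were reached at 40 of the 120 positive distances scanned, so reaching one is common. The exon is shown as the stretch of Helios mRNA whose reads the row would hold if such a distance applied, which was not tested. Its sequence is from the GENCODE M21 transcripts, 5′ to 3′ on the gene's strand, and the capitals mark bases 201 to 263, where a search of the printed strand found the cysteine and histidine codon spacing of a C2H2 zinc finger, the DNA-binding unit of the Ikaros family.
Ikzf2 coding exon: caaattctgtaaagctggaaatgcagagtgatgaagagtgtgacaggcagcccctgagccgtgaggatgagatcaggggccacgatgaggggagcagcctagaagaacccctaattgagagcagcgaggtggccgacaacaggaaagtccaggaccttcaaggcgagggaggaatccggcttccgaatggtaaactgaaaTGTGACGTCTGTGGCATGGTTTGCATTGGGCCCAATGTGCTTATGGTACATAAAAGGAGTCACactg
The same spacing was found in 340 of 21789 genes (1.56%) when the middle 267 bases of their first protein-coding transcript were searched the same way. A match describes the letters of the exon and says nothing of what the row counted.

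The Nrp1 row (ENSMUSG00000025810) is annotated on chromosome 8 from 128358604 to 128503363 on the plus strand, with 17 merged exons of 3597 bases. Among the 174 rows within 6 Mb of it, rho was highest at 54 kb with 0.672, against 0.646 unmoved and 0.395 at 54 kb the other way. Values within 0.03 of the maximum were found in separate places, at -1 to 2 kb, which includes the unmoved position, and at 46 to 48, 51, 54, 55, 58 and 74 kb. Unmoved, the row covers all 3597 exon bases of Nrp1, whereas at 54 kb 1257 of them lay inside the gene and 0 on any exon of a protein-coding transcript. Whether the Nrp1 row counts Nrp1 reads is therefore not established, and it is called the Nrp1 row throughout.

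**Figure D1:**
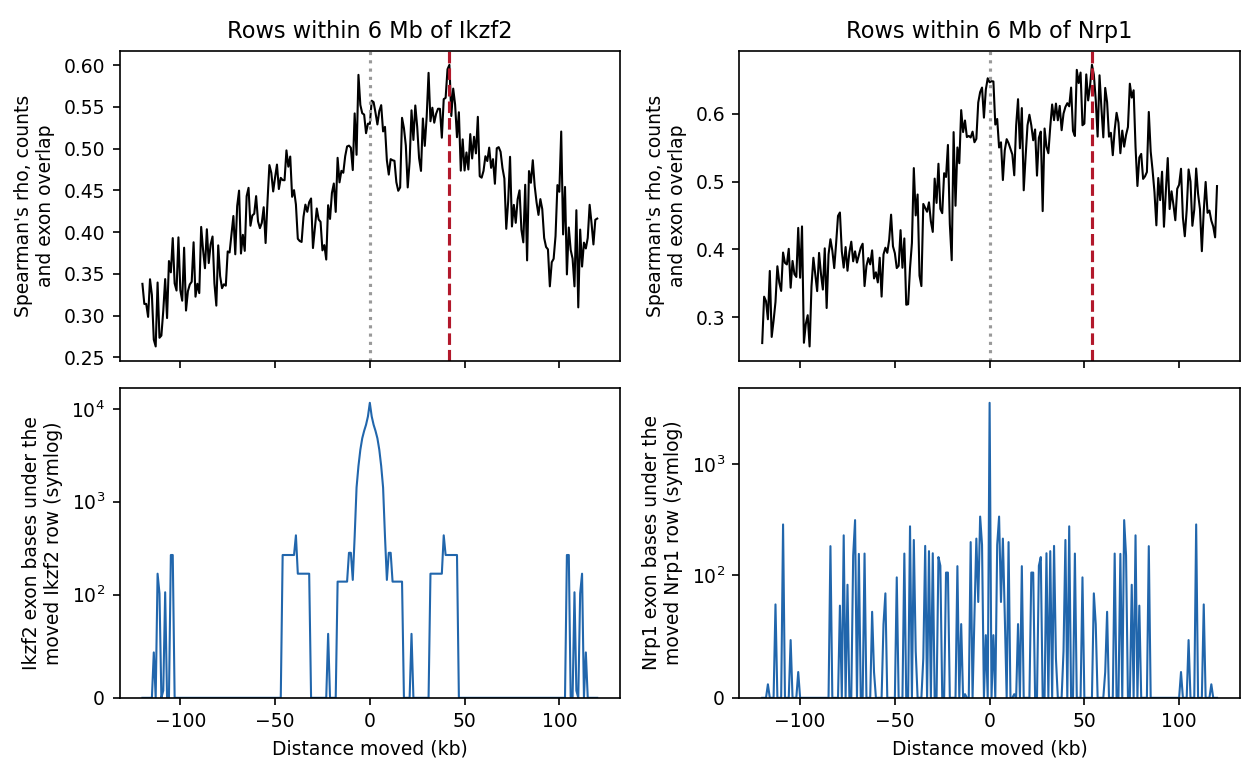
Agreement of counts with exon positions when the rows near Ikzf2 (left) or Nrp1 (right) are moved along the chromosome. Upper panels give Spearman's rho across rows against the distance moved in kb, with a dotted line at 0 and a dashed line at the best distance (42 kb and 54 kb); lower panels give the bases of the gene's own exons then covered by its row, on a symlog axis. Near Ikzf2 the best distance covers 267 own exon bases, as 40 of 120 positive distances cover some, and near Nrp1 the unmoved and best positions have similar heights.

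The Ikzf2 row was higher in both genotypes with altered Nfkbid than in controls. It held 265, 192, 213, 207, 201 and 201 CPM in transgenic replicates 1 to 6, with a median of 204 CPM. Knockout replicates 1 to 5 held 182, 301, 184, 179 and 255 CPM, with a median of 184 CPM. Control replicates 1 to 6 held 159, 138, 140, 163, 166 and 152 CPM, with a median of 155 CPM. Every transgenic and every knockout library thus lay above all 6 controls, 1 transgenic and 2 knockout libraries stood well above the rest of their groups, and the transgenic and knockout groups overlapped.

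Group means in the Ikzf2 row were 213 ± 26.5 CPM in transgenic libraries (SD, n = 6), 220 ± 55.4 in knockout libraries (SD, n = 5) and 153 ± 11.9 in controls (SD, n = 6). The log2 fold change was 0.48 (SE 0.13, 1.40-fold) for transgenic against control and 0.53 (SE 0.13, 1.44-fold) for knockout against control. For transgenic against knockout it was -0.05 (SE 0.13), with a 95% interval of -0.33 to 0.23, so these neighbours in the order of levels did not differ beyond their spread. Groups that do not overlap were found in 7.11% of the 9986 rows tested for transgenic against control (4.66% higher, 2.45% lower) and in 2.74% for knockout against control (1.08% higher, 1.66% lower). Since these contrasts were known when the row was chosen nothing is read from these shares. With 490 to 926 counts per library, the Ikzf2 row lay above 91.8% of tested rows in average log2 CPM. Whether the Ikzf2 row counts Ikzf2 reads is not established. If it does, a different share of Helios-positive Tregs and a different amount of Ikzf2 RNA per cell cannot be told apart in sorted bulk cells.

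**Figure D2:**
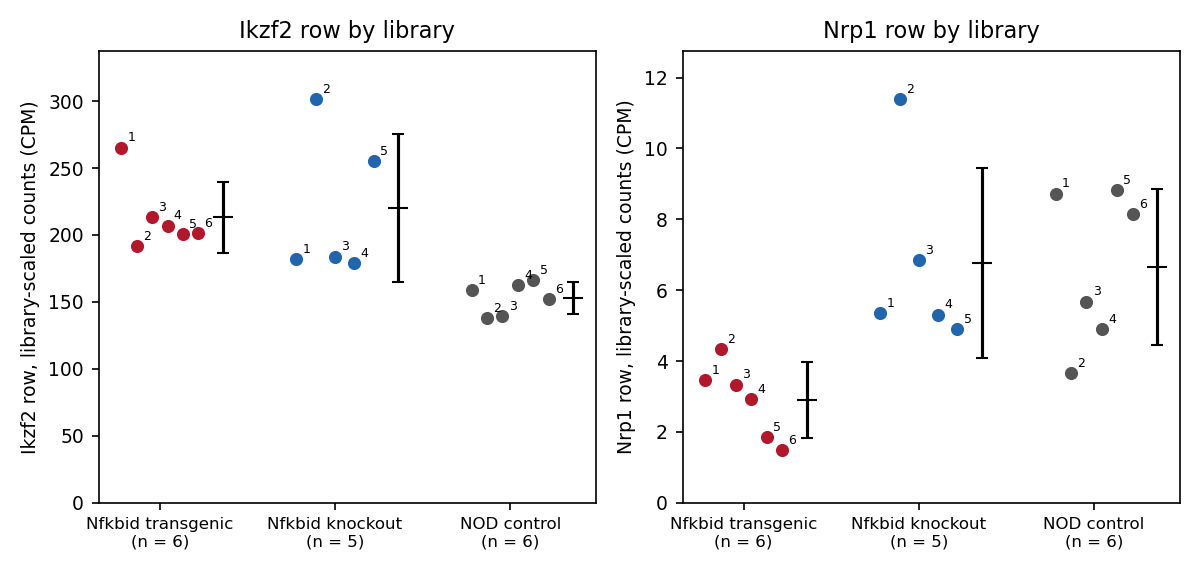
Library-scaled counts (CPM, axis from 0) of the Ikzf2 row (left) and the Nrp1 row (right) in 6 transgenic, 5 knockout and 6 control libraries. Points are libraries with their replicate numbers, and black marks give the mean ± SD. All transgenic and knockout points lie above the controls for Ikzf2, and for Nrp1 the transgenic points lie below all knockout points.

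The 3 libraries with the highest Ikzf2 levels, knockout replicates 2 and 5 and transgenic replicate 1, were also the 3 with the lowest scaling factors by the trimmed mean of M values (TMM), 0.864, 0.859 and 0.864 in a range up to 1.09. Deviations from group means were correlated over rows averaging 3 or more in log2 CPM. Transgenic replicate 1 had r of 0.649 and 0.59 with knockout replicates 2 and 5. With knockout replicates 1, 3 and 4 its r was -0.688, -0.015 and -0.7. The source of these shared deviations was not tested. When counts were divided by library totals alone, the Ikzf2 row held 189 to 228 CPM in transgenic libraries, 174 to 259 in knockout libraries and 142 to 180 in controls. On that scale the transgenic group still lay above all controls, and the knockout group overlapped them. The log2 fold changes without TMM factors were 0.40 for transgenic against control and 0.37 for knockout against control. Set against the Foxp3 row of the same library, which needs no scaling, the ratio of counts was 0.556 to 0.927 in transgenic libraries. It was 0.516 to 1.17 in knockout libraries and 0.373 to 0.488 in controls, with no overlap of either genotype with the controls. No share over all rows is given for this ratio, and the contrasts were known, so nothing is read from that separation. A lower Foxp3 row raises the ratio, and its mean was 318 CPM in transgenic and 313 in knockout libraries, against 346.5 in controls. The Foxp3 row of transgenic replicate 1 was the lowest of its group at 286 CPM, and those of knockout replicates 2 and 5 were the 2 lowest of theirs at 258 and 286 CPM.

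Without knockout replicates 2, 3 and 5, the libraries with the fewest rows above 0, the log2 fold change of the Ikzf2 row for knockout against control was 0.24 (SE 0.13) and that for transgenic against knockout was 0.25 (SE 0.13). The size of the knockout difference thus depended on which knockout libraries were in the fit. Left out singly, knockout replicates 2 and 5 gave 0.39 and 0.47, whereas knockout replicate 3, at 184 CPM, gave 0.58. Knockout replicates 1 and 4, at 182 and 179 CPM, lay above the highest control at 166 CPM. For transgenic against control the fit without knockout replicates 2, 3 and 5 gave 0.49 (SE 0.09). Leaving out transgenic replicate 1, the highest of its group, gave 0.41. The part of RNA quality in these differences was not tested.

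**Figure D3:**
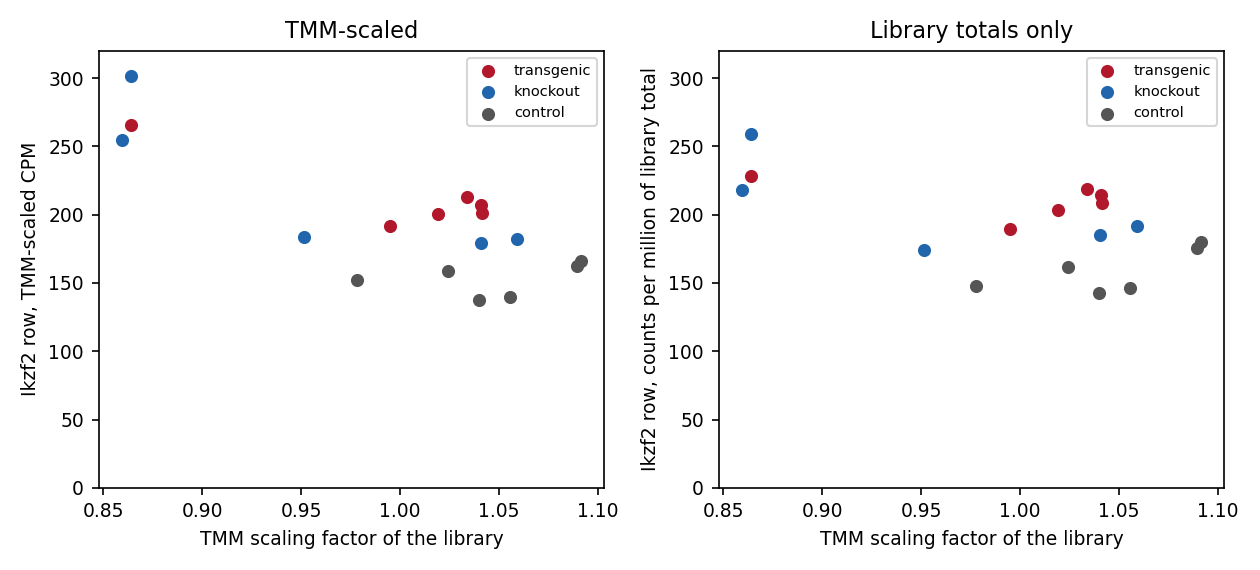
Ikzf2 row against the TMM scaling factor of each library, as TMM-scaled CPM (left) and as counts divided by the library total, on the CPM scale (right), both axes of counts from 0. Each point is 1 of 17 libraries coloured by genotype. The 3 libraries with factors near 0.86 have the highest scaled values, and on the right the lowest knockout point, at 174, lies below the highest control, at 180.

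The Gm29113 row, next to Ikzf2, was read beside it. Gm29113, a long non-coding RNA on the same strand, is annotated downstream of the 3′ end of Ikzf2, from -40.9 to -37.4 kb relative to the gene's lowest coordinate, and all of its 3432 exon bases fell on Ikzf2 exons when moved by 42 kb. Its row was singled out after its values were seen, and what it counts is not established. It held 27.6, 21.96, 25.5, 24.6, 19.95 and 28.2 CPM in transgenic replicates 1 to 6, and 14.8, 23.8, 14.3, 29.1 and 24.2 CPM in knockout replicates 1 to 5. Control replicates 1 to 6 held 18.9, 15.5, 14.6, 16.5, 14.7 and 14.3 CPM. All transgenic libraries lay above all controls, as in 4.66% of tested rows, and the knockout libraries fell into a pair at the level of controls and 3 above it. Since the row was singled out on its values, nothing is read from that share. At 42 kb the Ikzf2 row would reach only 267 Ikzf2 exon bases, while its group means were 153 to 220 CPM. The group means of the Gm29113 row were 15.7 to 24.6 CPM. In knockout replicate 4 the Gm29113 row was at its highest, and the Ikzf2 row, at 179 CPM, was at its group's lowest. Whether the distance of 42 kb applies to either row was not tested.

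The Gm29113 row averaged 24.6 ± 3.22 CPM in transgenic libraries (SD, n = 6), 21.2 ± 6.47 in knockout libraries (SD, n = 5) and 15.7 ± 1.74 in controls (SD, n = 6). It rose in transgenic libraries by 0.64 on the log2 scale against controls (SE 0.18, edgeR adjusted p = 0.0266), a call that ended in 10 of the 28 alternatives run, with log2 fold changes of 0.57 to 0.71 over all of them. For knockout against control its log2 fold change was 0.42 (SE 0.18, edgeR adjusted p = 0.185). For transgenic against knockout it was 0.22 (SE 0.18, edgeR adjusted p = 0.497). Its r with the Ikzf2 row was 0.687 over the 17 libraries, which share scaling factors and genotype. The 5 rows most like Ikzf2, described below, had r of 0.899 to 0.910. The other 3 tested rows that start within 250 kb of Ikzf2, Gm28497, Gm29114 and Gm29112, had r of -0.116, -0.299 and -0.136 and did not pass in any comparison. No row near Nrp1 was tested, and its nearest protein-coding neighbour, Itgb1, the beta-1 integrin chain, held 0 to 4 counts.

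The Nrp1 row was low, and lower in transgenic libraries than in both other groups. It held 3.46, 4.33, 3.33, 2.93, 1.84 and 1.49 CPM in transgenic replicates 1 to 6, from 10, 14, 11, 10, 6 and 5 counts. Knockout replicates 1 to 5 held 5.36, 11.4, 6.84, 5.31 and 4.91 CPM, from 20, 35, 24, 19 and 15 counts. Control replicates 1 to 6 held 8.73, 3.66, 5.68, 4.91, 8.83 and 8.15 CPM, from 42, 13, 21, 17, 30 and 28 counts. All transgenic libraries lay below all knockout libraries, 5 of 6 lay below all controls with transgenic replicate 2 above the lowest control, and knockout and control libraries overlapped, with knockout replicate 2 the highest of all.

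Group means in the Nrp1 row were 2.90 ± 1.06 CPM in transgenic libraries (SD, n = 6), 6.76 ± 2.69 in knockout libraries (SD, n = 5) and 6.66 ± 2.20 in controls (SD, n = 6). Summed over each group, 56, 113 and 151 counts corresponded to 2.88 CPM in transgenic libraries (exact Poisson 95% interval 2.17 to 3.74), 6.67 in knockout libraries (5.50 to 8.02) and 6.75 in controls (5.72 to 7.92), intervals that cover counting error only. The log2 fold change was -1.20 (SE 0.33, 0.436-fold) for transgenic against control and -1.21 (SE 0.34, 0.431-fold) for transgenic against knockout. For knockout against control it was 0.01 (SE 0.32), with a 95% interval of -0.67 to 0.70, which does not show that the levels are alike. Groups that do not overlap were found in 6.20% of tested rows for transgenic against knockout (4.24% higher, 1.96% lower), a contrast known when the row was chosen, so nothing is read from that share. The 2 comparisons of the transgenic group share its libraries and are not separate evidence. Without knockout replicates 2, 3 and 5 the values were -1.19, -0.32 and -0.87 for transgenic against control, knockout against control and transgenic against knockout.

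**Figure D4:**
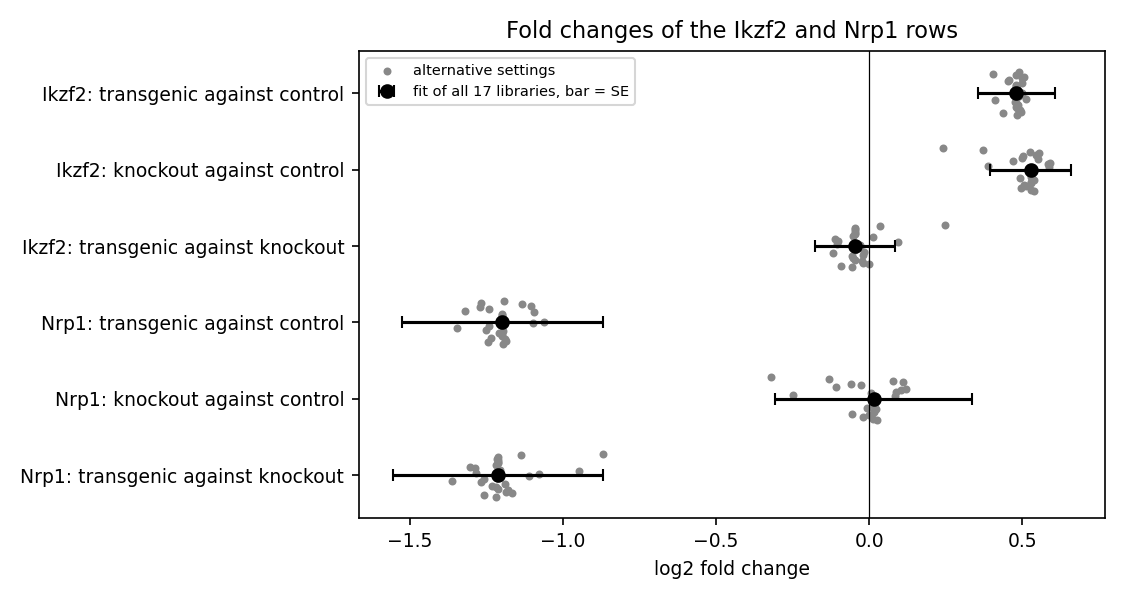
Log2 fold changes of the Ikzf2 and Nrp1 rows in the 3 comparisons. Black points with bars give the value and SE of the fit of all 17 libraries, and grey points the 28 alternative settings, including each library left out in turn. Ikzf2 lies above 0 against controls in both genotypes, and Nrp1 lies below 0 in both comparisons of the transgenic group under every setting shown.

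Neuropilin-1 is also made by endothelial cells and by dendritic cells, so rows of such cells were read beside the Nrp1 row. The 7 endothelial rows summed to 40.5 to 53.4 CPM in transgenic libraries, 44.3 to 80.2 in knockout libraries and 60.6 to 78.0 in controls. All transgenic libraries lay below all controls in this sum, whereas in the Nrp1 row 5 of 6 did. Of 2 endothelial rows tested, Pecam1, the junction protein CD31 that some T cells also carry, fell in transgenic libraries against controls with a log2 fold change of -0.64 (SE 0.14, edgeR adjusted p = 0.00522) and Egfl7 did not pass. The defining rows Cdh5, Kdr, Tek, Emcn and Vwf held at most 8 counts in any library. The 8 rows of plasmacytoid dendritic cells summed to 8.98 to 33.7 CPM in transgenic libraries, 11.5 to 27.6 in knockout libraries and 20.6 to 28.0 in controls, with Ly6d and Cd300c at 0, and 1 tested row did not pass. The part of other cell types in the Nrp1 values was not tested.

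The 11 rows of macrophages and dendritic cells summed to 59.2 to 68.5 CPM in transgenic libraries, 59.8 to 80.7 in knockout libraries and 53.0 to 64.7 in controls. Of 3 tested, Flt3, a growth factor receptor of dendritic cell precursors, rose in knockout libraries against controls by 1.40 (SE 0.35, edgeR adjusted p = 0.0414), a call that ended in 15 of 28 alternatives, and was lower in transgenic than in knockout libraries by a log2 fold change of -1.35 (SE 0.35, edgeR adjusted p = 0.0161), a call that ended with the replicate block, without knockout replicate 2 and without knockout replicates 2, 3 and 5 (edgeR adjusted p of 0.0507, 0.0536 and 0.0606). B cell rows summed to 179 to 272 CPM in transgenic libraries, 171 to 259 in knockout libraries and 216 to 301 in controls, with Blk, Cd79b and Ebf1 at 0, and neither of 2 tested passed. NK cell rows summed to 436 to 810 CPM in transgenic libraries, 29.0 to 40.2 in knockout libraries and 26.2 to 33.2 in controls. Of its 4 tested rows only Tyrobp, a neighbour of Nfkbid in the genome, passed, with 421 to 795 CPM in transgenic libraries, 10.1 to 14.5 in knockout libraries and 6.47 to 13.3 in controls, and Klra8 was at 0. CD8 T cell rows summed to at most 12.9, 19.6 and 13.3 CPM in transgenic, knockout and control libraries and erythroid rows to at most 0.303, 0.280 and 0.866 CPM. The 1 CD8 row tested did not pass, and no erythroid row was tested.

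No correlation of the Ikzf2 and Nrp1 rows passed the test within the transgenic or the control group. Among the 6 transgenic libraries Pearson's r of their log2 CPM was 0.235 (exact permutation p = 0.693, two-sided) and Spearman's rho 0.0857 (exact permutation p = 0.919). Among the 6 controls r was 0.627 (exact permutation p = 0.208, adjusted p = 0.417 over the 2 groups) and rho 0.657 (exact permutation p = 0.175, adjusted p = 0.35). Without the 2 libraries farthest from the median Ikzf2 level, r was 0.924 in transgenic libraries and -0.183 in controls. With 4 libraries each, these values are too uncertain to be read. No correlation is given for the 5 knockout libraries, since 6 were set as the minimum for a test.

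Genes of the surrounding pathways were read from 7 lists of 96 genes, Ikzf2 and Nrp1 left out, of which 58 passed the filter on low counts. For transgenic against control 5 of 58 rows passed the test, all higher, beside 7.40% of all tested rows (5.23% higher, 2.17% lower). For knockout against control 2 of 58 passed, both lower, beside 1.89% of all tested rows (0.881% higher, 1.01% lower). For transgenic against knockout 11 of 58 passed, 9 higher and 2 lower, beside 10.7% of all tested rows (6.34% higher, 4.33% lower). The comparisons share libraries in pairs. The median log2 fold change of all tested rows was -0.01 for transgenic against control, -0.02 for knockout against control and 0 for transgenic against knockout.

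Of the Ikaros family relatives of Helios, 3 of 4 were tested and none passed against controls in either genotype, with list medians of -0.05 for transgenic and 0.12 for knockout libraries. Ikzf3, which encodes Aiolos, averaged 30.1 ± 5.64 CPM in transgenic libraries, 15.8 ± 9.90 in knockout libraries and 31.1 ± 3.04 in controls (SD). It was higher in transgenic than in knockout libraries by a log2 fold change of 0.92 (SE 0.27, edgeR adjusted p = 0.031), a call that ended in 9 of 28 alternatives and stood at 0.29 without knockout replicates 2, 3 and 5. For knockout against control Ikzf3 had -0.97 (SE 0.27, edgeR adjusted p = 0.0611). Ikzf1, which encodes Ikaros, had -0.29 (SE 0.22, edgeR adjusted p = 0.523) for transgenic against control, and averaged 21.2 ± 5.05 CPM in transgenic libraries and 26.0 ± 7.62 in controls (SD, n = 6 each). Ikzf4, which encodes the Foxp3 partner Eos, had 0.02 (SE 0.10) for transgenic against control and 0.12 (SE 0.11) for knockout against control.

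Of 23 ligands, co-receptors and partners of neuropilins, 8 were tested and none passed in any comparison, with list medians of 0.04, -0.03 and 0.11 for transgenic against control, knockout against control and transgenic against knockout. Sema4a, the semaphorin that binds neuropilin-1 on mouse Tregs, averaged 6.16 ± 3.57 CPM in transgenic libraries (n = 6), 3.96 ± 2.65 in knockout libraries (n = 5) and 11.9 ± 3.60 in controls (SD, n = 6). Every knockout library, at 1.43 to 7.20 CPM, lay below every control, at 8.44 to 16.2 CPM, as in 1.66% of all tested rows. Sema4a was named for the smallest p of its list, so nothing is read from that separation. The log2 fold change of Sema4a was -1.59 in knockout libraries against controls (SE 0.42, edgeR adjusted p = 0.0515), which passed in 8 of 28 alternatives, and -0.96 (SE 0.38, edgeR adjusted p = 0.149) for transgenic against control. Flt4, a receptor for lymphatic growth factors with which neuropilins associate, had 0.31 (SE 0.12, edgeR adjusted p = 0.103) for transgenic against knockout. The rows of Nrp2, Vegfa, Kdr and Sema3a were below the filter, the last at 0 in every library.

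Of 18 genes of the Akt and Foxo axis, on which neuropilin-1 is known to act in mouse Tregs by restraining Akt, 14 were tested. None passed against controls in either genotype, with medians of -0.10 for transgenic and -0.07 for knockout libraries, and 3 passed for transgenic against knockout. Rictor, the defining subunit of mTORC2, was lower in transgenic libraries, at 258 ± 33.3 CPM (n = 6) against 356 ± 63.2 in knockout libraries (SD, n = 5), with a log2 fold change of -0.46 (SE 0.11, edgeR adjusted p = 0.0107) that was -0.20 and not called without knockout replicates 2, 3 and 5. Pik3r1, a regulatory subunit of PI3 kinase, was lower in transgenic libraries at 5.34 ± 1.54 CPM against 10.5 ± 5.27 in knockout libraries, with -0.96 (SE 0.31, edgeR adjusted p = 0.0457), a call that ended in 18 of 28 alternatives. Without knockout replicate 5, which held 19.6 CPM, the Pik3r1 value was -0.61. Ccr7, a homing receptor and Foxo1 target, was higher in transgenic libraries at 3.04 ± 1.69 CPM against 0.425 ± 0.539 in knockout libraries, with 2.77 (SE 0.72, edgeR adjusted p = 0.0155), a call that ended without knockout replicates 2, 3 and 5 and with the replicate number as a block (edgeR adjusted p = 0.0695). The Ccr7 row held 4 to 18 counts in transgenic and 0 to 4 in knockout libraries, with 2 knockout libraries at 0, so its fold change rests on few counts. Mtor, the kinase itself, had 0.24 (SE 0.12, edgeR adjusted p = 0.298) for transgenic against control, and the Akt1 and Foxo1 rows were below the filter.

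Of 13 subunits of NuRD, the remodelling and deacetylase complex with which Ikaros proteins associate, 10 were tested. Chd4, its main helicase, averaged 596 ± 61.9 CPM in transgenic libraries (n = 6), 410 ± 53.1 in knockout libraries (n = 5) and 427 ± 27.6 in controls (SD, n = 6). It rose in transgenic libraries by 0.48 against controls (SE 0.10, edgeR adjusted p = 0.00208) and was higher than in knockout libraries by 0.54 (SE 0.10, edgeR adjusted p = 0.00101). Its calls held in all 28 alternatives, and the lowest transgenic value of 499 CPM lay above the highest knockout value of 479 and control value of 460. Transgenic libraries lay wholly above controls in 4.66% of tested rows, and wholly above knockout libraries in 4.24%. Chd3, a related helicase, had 0.23 (SE 0.10, edgeR adjusted p = 0.170) for knockout against control, and no other NuRD row passed in any comparison.

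Of 12 TGF-beta signalling genes, 9 were tested and none passed against controls. Itgb8, the integrin chain through which Tregs activate latent TGF-beta, averaged 11.1 ± 1.42 CPM in transgenic libraries (n = 6), 4.08 ± 1.30 in knockout libraries (n = 5) and 6.78 ± 2.69 in controls (SD, n = 6). It was higher in transgenic than in knockout libraries by a log2 fold change of 1.43 (SE 0.29, edgeR adjusted p = 0.00224). Against controls Itgb8 had 0.70 (SE 0.26, edgeR adjusted p = 0.119) in transgenic and -0.73 (SE 0.29, edgeR adjusted p = 0.159) in knockout libraries.

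Of 19 Treg identity genes, 12 were tested, and 4 passed as higher and none as lower in transgenic libraries against controls, with a list median of 0.32. Below the filter, the Tnfrsf18, Tnfrsf4, Pdcd1, Capg and Icos rows held at most 1, 1, 0, 3 and 5 counts in any library. The Tigit and Lrrc32 rows held at most 13 and 17. Here too a row's name is the table's and not an established identity. Of the tested rows, Foxp3, Gpr83 and Swap70 had lower means in transgenic libraries than in controls and did not pass. Gpr83, the most abundant of the list, averaged 924 CPM in transgenic libraries, 1258 in knockout libraries and 1151 in controls. Cd83, an activation marker, averaged 62.3 ± 4.44 CPM in transgenic libraries, 32.5 ± 10.4 in knockout libraries and 26.2 ± 4.10 in controls (SD), a rise in transgenic libraries of 1.25 against controls (edgeR adjusted p = 1.305e-05) and 0.94 against knockout libraries (edgeR adjusted p = 0.000597). Izumo1r, the folate receptor FR4 of Tregs, averaged 266 ± 19.9 CPM in transgenic libraries, 140 ± 13.1 in knockout libraries and 178 ± 11.2 in controls (SD). Its log2 fold changes were 0.58 for transgenic against control (edgeR adjusted p = 7.83e-05), -0.35 for knockout against control (edgeR adjusted p = 0.0478, lost in 21 of 28 alternatives) and 0.93 for transgenic against knockout (edgeR adjusted p = 2.996e-07). The ectoenzymes Nt5e (CD73) and Entpd1 (CD39), which together turn extracellular ATP into adenosine, also rose in transgenic libraries against controls, by 0.50 (edgeR adjusted p = 0.000675) and 1.10 (edgeR adjusted p = 0.00792). Entpd1 fell in knockout libraries against controls with a log2 fold change of -1.55 (edgeR adjusted p = 0.0105), at 2.20 ± 1.09 CPM in knockout libraries against 6.37 ± 1.52 in controls (SD), a call that ended in the fit of the 2 groups alone and with the replicate number as a block (edgeR adjusted p of 0.0736 and 0.0518).

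The Ikzf2 row stood above controls in both genotypes, while the Treg identity rows had list medians of 0.32 in transgenic and -0.13 in knockout libraries against controls. For knockout against control 2 of 12 passed as lower and 0 as higher, beside 1.01% and 0.881% of all tested rows. Those 2 were Izumo1r and Entpd1, whose calls ended in 21 and 2 of 28 alternatives. Beside 6.34% higher and 4.33% lower of all tested rows, 5 of the 12 were higher in transgenic than in knockout libraries and 0 lower, with a median of 0.49. These were Cd83, Izumo1r, Entpd1 (2.66, edgeR adjusted p = 3.607e-06), Nt5e (0.52, edgeR adjusted p = 0.000777) and Ctla4, an inhibitory receptor named here after its values were seen (0.75, SE 0.21, edgeR adjusted p = 0.0212). The Il2ra row, the interleukin-2 receptor alpha chain, had log2 fold changes of 0.09 (SE 0.10), 0.38 (SE 0.11) and -0.29 (SE 0.11) for transgenic against control, knockout against control and transgenic against knockout, and passed in none (edgeR adjusted p of 0.737, 0.0661 and 0.0891).

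Of 9 genes associated with Tregs induced outside the thymus, 3 were tested and none passed in any comparison. Gata3, a transcription factor of type 2 responses and tissue Tregs, averaged 102 ± 9.54 CPM in transgenic libraries and 119 ± 13.5 in controls (SD, n = 6 each), a log2 fold change of -0.23 (edgeR adjusted p = 0.215). The list median over 3 rows was -0.14 for transgenic against control and -0.30 for knockout against control. The Maf, Il10 and Dapl1 rows were below the filter. Maf averaged 3.26, 1.04 and 0.680 CPM in transgenic, knockout and control libraries, and Il10 went the other way, at 0.103, 0.296 and 1.06.

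**Figure D5:**
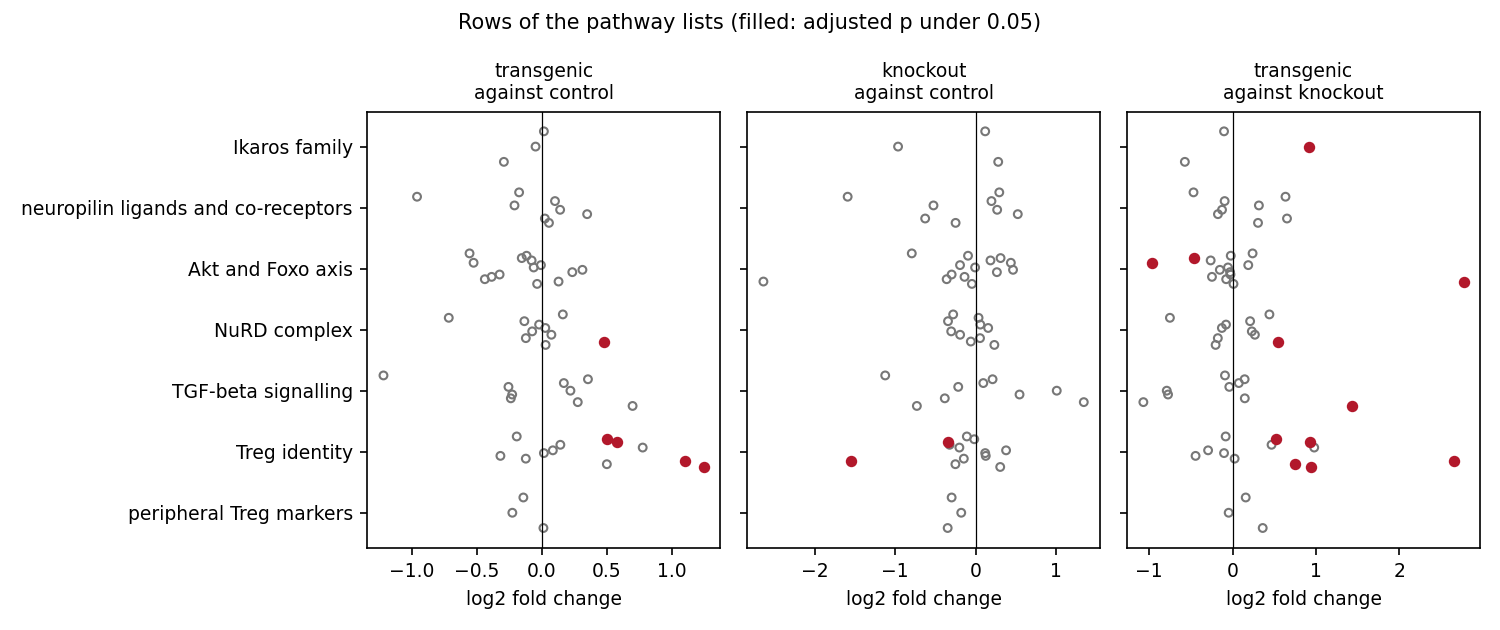
Log2 fold changes of the tested rows of 7 gene lists in the 3 comparisons, with 1 point per row. Filled points have an adjusted p under 0.05 and open points do not, and the lists run down the page. Filled points number 5, 2 and 11 across the panels from left to right, and most belong to the Treg identity list.

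The rows whose log2 CPM was most like that of Ikzf2 over the 17 libraries, among the 5667 named rows averaging 3 or more in log2 CPM, were Parp4 (r = 0.910), Syncrip (0.905), Sdcbp (0.901), Inpp5k (0.900) and Vps37b (0.899). Like the Ikzf2 row, Sdcbp had 210 ± 41.0 CPM in transgenic libraries, 204 ± 56.5 in knockout libraries and 151 ± 9.85 in controls (SD). For the Nrp1 row the nearest were Zfp865 (0.882), Mbp (0.854), Sfn (0.849), Med24 (0.826) and Mtmr12 (0.825), among 5668 rows. Med24, a Mediator subunit, had 33.4 ± 10.1 CPM in transgenic libraries, 63.8 ± 13.1 in knockout libraries and 59.3 ± 12.9 in controls (SD). The libraries share genotypes and scaling factors, so these r values are descriptions with no test.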

How the data were processed

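Per the labels' protocols, poly(A) RNA of sorted splenic Foxp3-GFP+ Tregs was sequenced to about 27 M reads per library, in reads of 67 bp beside molecular identifiers of 9 bp. The authors deposited 1 table of expected counts per gene for 17 libraries. Per the submitters' processing notes, Bowtie2, edgeR and GRCm38 were used. The sources used here do not say whether the identifiers served to remove duplicates. Of 47643 rows 47224 matched a symbol in GENCODE M21 (GRCm38), and 5.87% of values are not whole. Totals were 3133388 to 4726615 counts.

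Counts were rounded, filtered with filterByExpr by genotype, scaled by TMM and tested with the quasi-likelihood F test of edgeR 4.0.16 (R 4.3.3), in a joint fit of the 17 libraries (common biological coefficient of variation 0.241). Called rows had a Benjamini-Hochberg adjusted p under 0.05 over 9986 rows. The SE is the absolute log2 fold change divided by the square root of F, and 95% intervals use 14 residual degrees of freedom. The script was tested on simulated data. Library names carry separate identifiers, which the labels do not describe as animals, so p-values rest on how much libraries vary, which may be in part technical. Replicate numbers gave no pairing. All libraries of a group differed by more than sampling noise. Genes named were Ikzf2 and Nrp1, up to 4 called members of each list by p or else the member with the smallest p, the 5 rows most like each gene, and the neighbours within 250 kb. A few further members are given as values or counts beside these. Some rows that this rule names are not reported here. The genes and lists were chosen with earlier results of these data known. Alternatives were RLE and upper quartile scaling, no filter or a CPM filter, limma-voom (limma 3.58.1), DESeq2 1.42.0, a block for the replicate number, counts left unrounded, only the 2 groups compared in a fit, and each library left out in turn. Fits without knockout replicates 2, 3 and 5, and with library totals alone, were added after seeing the data. The table is the only file used, and gene coordinates come from GENCODE M21.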

Additional observations from a re-analysis of the deposited data

Results flagged for a closer look

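The gap test was applied to 87 sets of libraries, each 1 measure in 1 genotype. In 6 a library stood out, with a gap to the nearest other library above Dixon's 95% limit for its group's range. About 1 set in 20 is so marked by chance. The Ikzf2 row of transgenic replicate 1 held 265.3 CPM, against 191.5 to 213.1 in the other transgenic libraries, and the TMM factor of that library was 0.864, against 0.9951 to 1.041. Its Rictor row, at 324.1 CPM, was also above the 231.7 to 256.1 of the others. The Pik3r1 row of knockout replicate 5 held 19.64 CPM, against 6.557 to 9.439 in the other knockout libraries. The Ikzf3 row of control replicate 6 held 37.24 CPM, against 29.3 to 30.56 in the other controls. Control replicate 1 had the largest total, 4726615 counts, against 3133388 to 3535404.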

How the results depend on the processing

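The Ikzf2 and Nrp1 log2 fold changes for transgenic against control kept their sign in all 28 alternatives, and moved by less than the spread between replicates. Leaving out each library gave ranges for transgenic against control, knockout against control and transgenic against knockout of 0.41 to 0.51, 0.39 to 0.59 and -0.12 to 0.09 for Ikzf2 and of -1.35 to -1.06, -0.25 to 0.12 and -1.36 to -0.95 for Nrp1. Without knockout replicates 2, 3 and 5, Ikzf2 moved to 0.24 for knockout against control and 0.25 for transgenic against knockout. That setting called 1348 rows instead of 739 and 8 listed rows instead of 5 for transgenic against control, and 43 rows instead of 189 and 1 listed row instead of 2 for knockout against control. Fits of 2 groups called 1226, 76 and 632 rows in the 3 comparisons, against 739, 189 and 1065, with 0 listed rows for knockout against control and 7 instead of 11 for transgenic against knockout. For knockout against control, no filter called 571 rows (4 listed), DESeq2 605 (5 listed), and RLE scaling and the CPM filter 1 listed row each. Leaving out each library, rows called ran from 529 to 876, 88 to 1124 and 735 to 1641 and listed rows from 5 to 6, 1 to 9 and 9 to 14. For knockout against control, rows called were 518 without transgenic replicate 1 and 806, 111, 103, 1124 and 88 without knockout replicates 1 to 5. They were 89, 92, 107 and 95 without control replicates 1, 3, 4 and 5. For transgenic against knockout 1641 were called without transgenic replicate 1. Replicate numbers share only a number: 3 of 16 same-numbered pairs correlated above 0.1 (-0.688 to 0.539) and 2 libraries correlated best with their own number. A replicate block called 67 rows for knockout against control and 670 for transgenic against knockout, with 0 listed rows for knockout against control. The causes were not tested. The within-group correlations were refitted without the 2 farthest libraries and not with each library left out. Depth limits the Nrp1 row, at 5 to 42 counts per library, more than the Ikzf2 row.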
